A study of Mus musculus with 12 samples.

Results

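Neuregulins, the ligands of the epidermal growth factor (EGF) family and their ErbB receptors were followed in RNA of mouse sciatic nerve. The 10 genes were chosen by symbol among the 38087 gene models of the count table: the neuregulins Nrg1 and Nrg2, the EGF receptor ligands Btc, Areg, Ereg, Hbegf and Tgfa, and the receptors Egfr, Erbb2 and Erbb3. Of the 10, 8 passed the low-count filter and were tested among 22384 models, while Areg and Ereg did not pass.

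Libraries fell into 4 groups of 3. The dKO mice (Dhh-Cre+:Tfebflox/flox;Tfe3KO) lack Tfe3 in all cells and lose Tfeb in cells where the Dhh promoter, active in developing Schwann cells, drives the Cre recombinase. Control mice (Dhh-Cre-:Tfebflox/flox;Tfe3+) carry the same floxed Tfeb alleles without Cre and keep Tfe3. For each genotype the stump distal to a sciatic transection was taken 5 days after the cut (dKO 5DPI and Control 5DPI), with the uncut nerve of the opposite side as its counterpart (dKO Intact and Control Intact). Per the labels, intact nerves were stripped of epineurium before freezing, and the injured ones are not said to have been. Strain, age and sex were not given in the sources used here.

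ErbB receptors are tyrosine kinases that act in pairs. ErbB3 binds neuregulins but has a weak kinase, and it signals together with ErbB2, which has no ligand of its own. This pair is known in Schwann cells as the receptor for neuregulin 1 on axons, which sets survival, migration and the thickness of myelin. EGFR is bound by TGF-alpha, amphiregulin, HB-EGF, betacellulin, epiregulin and EGF, which are made as membrane proteins and cut free by proteases.

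Upstream sequences are shown for the ligands with the largest rise and the largest fall after injury, Btc and Tgfa. They come from RefSeq on GRCm38.p6, whose table held 5 of the 10 members (Areg, Btc, Tgfa, Egfr and Erbb2), and span 250 bases before and 50 bases after the start. Capitals mark the bases from the start onward.
Btc (chr5:91402945-91403244, minus strand): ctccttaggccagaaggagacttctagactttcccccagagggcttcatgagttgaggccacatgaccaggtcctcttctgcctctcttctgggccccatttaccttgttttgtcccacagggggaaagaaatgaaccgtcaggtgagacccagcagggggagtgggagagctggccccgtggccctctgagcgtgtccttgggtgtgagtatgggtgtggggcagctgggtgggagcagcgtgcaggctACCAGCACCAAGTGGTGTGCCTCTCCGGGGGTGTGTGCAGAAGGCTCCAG
Tgfa (chr6:86194972-86195271, plus strand): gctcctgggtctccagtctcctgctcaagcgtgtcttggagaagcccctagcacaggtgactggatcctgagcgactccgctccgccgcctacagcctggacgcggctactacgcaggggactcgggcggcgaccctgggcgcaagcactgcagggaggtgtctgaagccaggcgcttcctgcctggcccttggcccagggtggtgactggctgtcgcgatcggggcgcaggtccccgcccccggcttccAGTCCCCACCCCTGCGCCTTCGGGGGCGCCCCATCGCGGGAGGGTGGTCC
The core E-box CACGTG, to which TFEB and TFE3 bind, the longer palindromic CLEAR element that contains it, and the AP-1 motif TGANTCA were searched on both strands. No match was found in these windows of Btc, Tgfa, Egfr, Erbb2 or Areg. Among all 32851 promoter windows of the same length, 7.15% held the core E-box, 0.33% the CLEAR element and 7.81% the AP-1 motif. Bases G and C made up 60.3% of the Btc window and 70.7% of the Tgfa window.

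Several facts of the libraries bear on the values. Total counts ran from 15430999 to 35845371 per library. Tfeb was read at 14.2 to 29.8 CPM (read counts scaled to library size) in dKO nerve and 18.2 to 26.9 CPM in control nerve. Tfe3 was read at 43.3 to 53.8 CPM in dKO nerve and 55.0 to 67.6 CPM in control nerve, and a gene-level count does not reveal the loss of single exons. Control 5DPI replicate 1 stood apart with 10712 Xist reads and 244 Y-linked reads, where every other library had at most 23 Xist reads and at least 1907 Y-linked ones. Its 4 red cell markers summed to 11430 CPM, against at most 1697 CPM in any other library. All 3 dKO 5DPI libraries and Control 5DPI replicate 4 form a second library set. They had reads on 174 to 370 olfactory receptor genes at equal depth, against 52 to 80 in the other 8 libraries. This split was found in an earlier analysis of these data. Intact nerve was rich in myelin RNA, with 12 myelin markers summing to between 81844 and 108078 CPM.

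Levels per exon length placed the receptors and ligands in an order that differed with injury. The scale in this paragraph is CPM per kb of merged exons. In dKO 5DPI nerve Hbegf led at 35.6 ± 3.68, above Erbb3 at 15.9 ± 1.77, Erbb2 at 14.9 ± 1.34 and Btc at 10.6 ± 1.67 (SD, n = 3). Of these neighbours Erbb3 and Erbb2 overlapped. In Control 5DPI nerve Erbb3 led at 19.4 ± 3.27, with Btc at 15.0 ± 2.07 and Erbb2 at 11.3 ± 1.99, each overlapping its neighbour, and Hbegf stood apart from them at 6.85 ± 1.09. In dKO Intact nerve Erbb3 led at 38.1 ± 4.74, followed by Erbb2 at 27.1 ± 2.04, Tgfa at 20.6 ± 2.48 and Hbegf at 19.5 ± 1.502, of which Tgfa and Hbegf overlapped. In Control Intact nerve Erbb3 led at 41.4 ± 10.7, followed by Hbegf at 22.1 ± 2.02, Tgfa at 21.7 ± 3.37 and Erbb2 at 20.3 ± 0.355. The ranges of Hbegf and Tgfa, and of Tgfa and Erbb2, overlapped there, so the order of these genes is not resolved. Nrg1 was low in every group, at 0.522 ± 0.192 in dKO 5DPI nerve and between 0.0730 and 0.0901 on average in the other 3 groups.

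**Figure D1:**
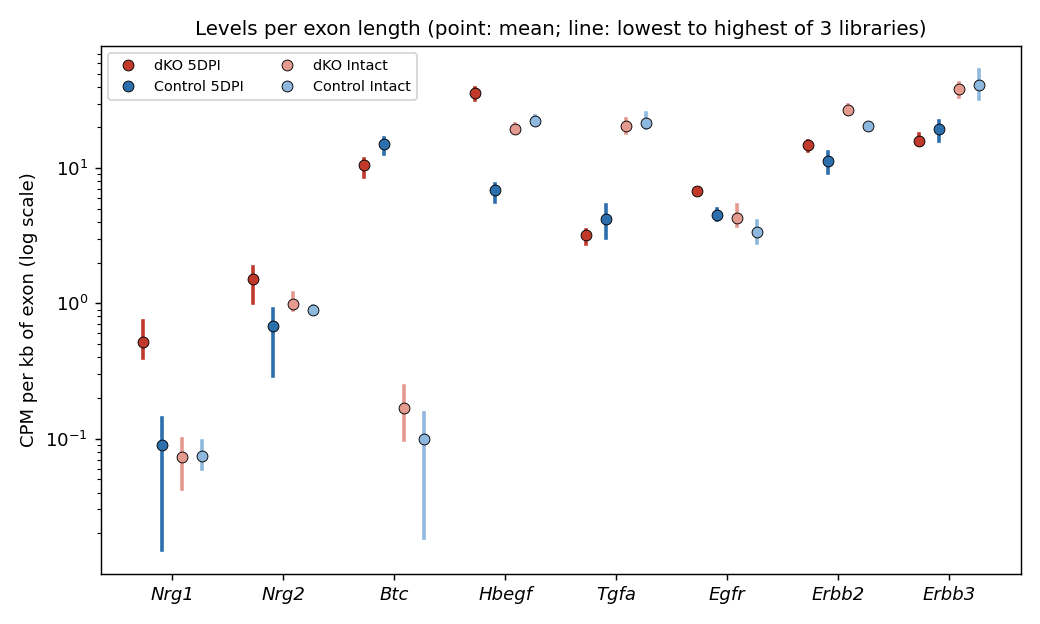
CPM per kb of exon (log axis) of the 8 tested members, with the group mean as a point and the lowest to highest of 3 libraries as a line. Hbegf is the highest member in dKO 5DPI nerve at 35.6, and Btc is at most 0.246 in all intact libraries.

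The first question was what transection changed in each genotype. After injury the ligand gene Btc and the receptor gene Egfr rose in both genotypes, and Tgfa, Erbb2 and Erbb3 fell in both. Hbegf went opposite ways, higher than intact nerve in dKO mice and lower than intact nerve in control mice. Nrg1 rose in dKO nerve. In dKO nerve 7 of 10 members were called at an adjusted p of 0.05, 4 higher and 3 lower, where 44.7% of all tested models were called, 22% higher and 22.6% lower. In control nerve 6 of 10 were called, 2 higher and 4 lower, where 46.8% of models were, 24.4% higher and 22.4% lower. Areg and Ereg count as not called. The ranges of injured and intact libraries were apart for 7 members in dKO nerve, 4 higher and 3 lower, where 61% of all models were, 31.1% higher and 29.9% lower. In control nerve they were apart for 6, 2 higher and 4 lower, where 53.3% of all models were, 27.8% higher and 25.5% lower. The median change of the 8 tested members was 0.63 in dKO nerve (0.05 over all models) and -0.63 in control nerve (0.09 over all models). Single members ran from -2.67 to 5.98 in dKO nerve and from -2.35 to 7.19 in control nerve, so these medians describe no common shift. All tests are edgeR quasi-likelihood tests on counts, adjusted over all models by the Benjamini-Hochberg method, and changes are log2 fold changes with standard error (SE).

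Btc encodes betacellulin, which binds EGFR and ErbB4. It stood at 52.6, 51.5 and 39.0 CPM in dKO 5DPI nerve, against 1.11, 0.732 and 0.441 CPM in dKO Intact nerve. In Control 5DPI nerve it stood at 71.3, 74.8 and 57.1 CPM, and in Control Intact nerve at 0.695, 0.0827 and 0.562 CPM. Every injured library was far above every intact one, and intact libraries held only 2 to 29 reads of the gene. The log2 change was 5.98 (SE 0.37, adjusted p = 9.04e-08) in dKO nerve and 7.19 (SE 0.40, adjusted p = 2.13e-08) in control nerve. The difference of both changes was -1.21 (95% interval -2.41 to -0.02) and did not pass over all genes (adjusted p = 0.308).

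Btc lies on chromosome 5 beside other genes of the family. Epgn, Ereg, Areg and Btc stand within 375.5 kb there (91027464 to 91402994, GRCm38, GENCODE M21 by symbol). Areg, which encodes amphiregulin, had 0 to 7 counts in dKO 5DPI libraries, 0 to 3 in Control 5DPI libraries and 0 to 2 in intact ones. Ereg, which encodes epiregulin, had 1 to 11 counts in dKO 5DPI and in Control 5DPI libraries and 0 to 2 counts in intact ones. The Ereg reads were uneven, with 11 counts in Control 5DPI replicate 4 and at most 2 in the other Control 5DPI libraries. Both genes were near the limit of detection at this depth, so no change is given for them. Epgn, the gene of epigen, had 11 counts summed over dKO 5DPI libraries, 17 over Control 5DPI, 33 over dKO Intact and 39 over Control Intact.

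Tgfa (chromosome 6, 86195223 to 86275719) encodes TGF-alpha, a ligand of EGFR. It stood at 22.6, 22.3 and 17.7 CPM in dKO 5DPI nerve, against 118, 132 and 150 CPM in dKO Intact nerve. In Control 5DPI nerve it stood at 28.1, 34.7 and 19.7 CPM, and in Control Intact nerve at 129, 166 and 128 CPM. All injured libraries lay below all intact ones. It fell by 2.67 on the log2 scale in dKO nerve (SE 0.19, adjusted p = 1.17e-07) and by 2.35 in control nerve (SE 0.19, adjusted p = 2.17e-07). The difference of both changes was -0.32 (95% interval -0.87 to 0.23, adjusted p = 0.603).

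**Figure D2:**
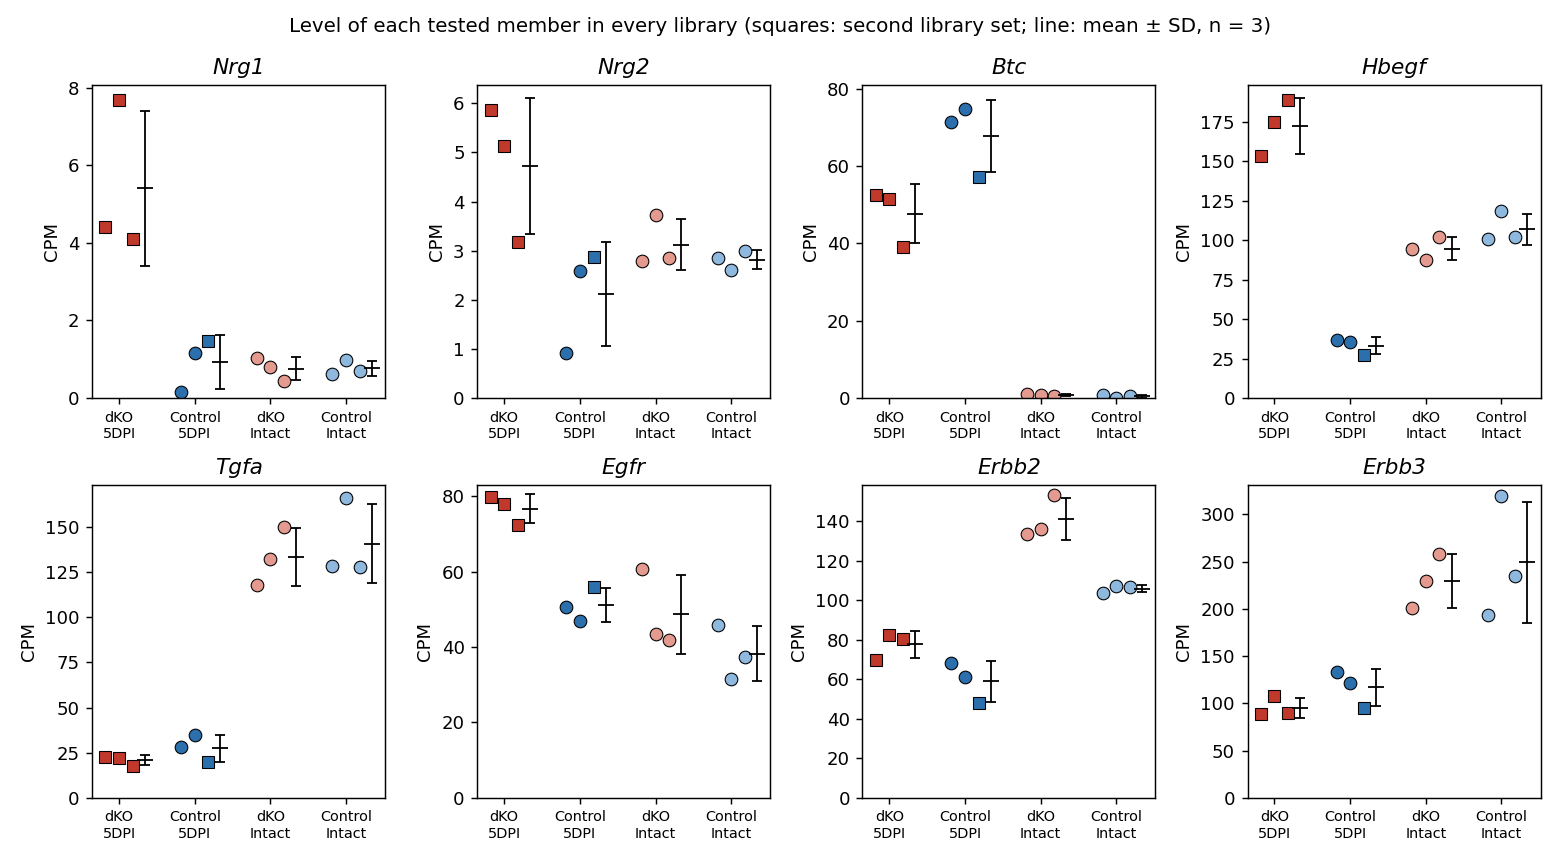
CPM in every library for the 8 tested members, by group, with the mean and SD (n = 3) beside the points, and squares for the second library set. Hbegf stands at 153 to 189 CPM in dKO 5DPI nerve and 27.0 to 36.7 CPM in Control 5DPI nerve, while Btc is near 0 in all intact libraries.

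Hbegf encodes HB-EGF, a heparin-binding ligand of EGFR and ErbB4. It stood at 153, 175 and 189 CPM in dKO 5DPI nerve, against 94.1, 87.4 and 102 CPM in dKO Intact nerve. In Control 5DPI nerve it stood at 36.7, 35.6 and 27.0 CPM, and in Control Intact nerve at 100.5, 118 and 102 CPM. The intact groups overlapped, every dKO 5DPI library lay above them, and every Control 5DPI library lay below them. Hbegf rose by 0.87 in dKO nerve (SE 0.13, adjusted p = 7.15e-05) and changed by -1.69 in control nerve (SE 0.13, adjusted p = 9.31e-08). The difference of both injury changes was 2.56 (SE 0.18, 95% interval 2.17 to 2.94, adjusted p = 4.25e-06). Hbegf was the only member called for this difference, where 2.9% of all tested models were, 0.737% higher and 2.17% lower. The gene lies on chromosome 18 from 36504927 to 36515805.

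Of the receptor genes Erbb3 and Erbb2 fell and Egfr rose. Erbb3 (chromosome 10, 128567523 to 128589652) had 88.8, 108 and 89.95 CPM in dKO 5DPI nerve, against 201, 230 and 258 CPM in dKO Intact nerve. It had 133, 122 and 95.1 CPM in Control 5DPI nerve, against 194, 320 and 234 CPM in Control Intact nerve. Injured libraries lay below intact ones in both genotypes. Its change was -1.26 in dKO nerve (SE 0.18, adjusted p = 5.54e-05) and -1.09 in control nerve (SE 0.18, adjusted p = 0.00015). In bulk nerve fewer Schwann cells and less Erbb3 RNA per Schwann cell cannot be told apart. The 11 Schwann cell markers summed to 3259 to 3503 CPM in dKO 5DPI nerve and 6499 to 6959 CPM in dKO Intact nerve. They summed to 4258 to 6073 CPM in Control 5DPI nerve and 6414 to 8463 CPM in Control Intact nerve, and their part in the fall of Erbb3 was not tested.

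Erbb2 (chromosome 11, 98412470 to 98437716), the partner without a ligand, had 69.7, 82.6 and 80.7 CPM in dKO 5DPI nerve, against 134, 136 and 153 CPM in dKO Intact nerve. It had 68.2, 61.2 and 47.8 CPM in Control 5DPI nerve, against 104, 107 and 107 CPM in Control Intact nerve. Groups did not overlap in either genotype. The change was -0.86 in dKO nerve (SE 0.12, adjusted p = 5.58e-05) and -0.84 in control nerve (SE 0.12, adjusted p = 5.45e-05), with a difference of -0.02 (95% interval -0.39 to 0.35). The sign of that difference turned with 9 of 21 alternatives, 4 of them with a library left out. Exons of Mien1 overlap those of Erbb2 on the opposite strand, with 12068 counts of Mien1 in all, and the strand setting of the counting was not given.

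Egfr (chromosome 11, 16752203 to 16918158), the receptor of the Btc, Hbegf and Tgfa products, went the other way. It had 79.9, 77.9 and 72.4 CPM in dKO 5DPI nerve, against 60.7, 43.4 and 42.0 CPM in dKO Intact nerve. It had 50.7, 47.0 and 56.0 CPM in Control 5DPI nerve, against 45.8, 31.5 and 37.4 CPM in Control Intact nerve. Injured libraries were above intact ones in both genotypes, narrowly so in control nerve. Egfr rose by 0.66 in dKO nerve (SE 0.15, adjusted p = 0.00315) and by 0.42 in control nerve (SE 0.15, adjusted p = 0.0364). The call in control nerve ended without Control Intact replicate 2 (log2 change 0.25), without Control Intact replicate 3 (0.40), without Control 5DPI replicate 1 (0.42) or without Control 5DPI replicate 4 (0.35), at adjusted p = 0.0643 to 0.222. It also ended with DESeq2 (adjusted p = 0.0535), and 9 of 16 alternatives ended it in all.

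Nrg1 encodes neuregulin 1, whose axonal form is made by neurons with cell bodies outside the nerve, so nerve RNA reports the gene in the cells of the nerve. Counts cover the whole gene (chromosome 8, 31814551 to 32884029, minus strand) and cannot separate its isoforms. It had 146, 277 and 71 counts in dKO 5DPI libraries, which are 4.41, 7.70 and 4.10 CPM, against 1.03, 0.793 and 0.441 CPM in dKO Intact nerve. It had 5, 37 and 36 counts in Control 5DPI libraries, which are 0.157, 1.16 and 1.48 CPM, and 0.622, 0.992 and 0.703 CPM in Control Intact nerve. Only the dKO 5DPI libraries stood apart, and the other 3 groups overlapped one another. Nrg1 rose by 2.84 in dKO nerve (SE 0.60, adjusted p = 0.00145), and its change in control nerve was 0.26 (95% interval -1.02 to 1.54, adjusted p = 0.752). The difference of both changes was 2.58 (SE 0.84, 95% interval 0.79 to 4.37) and did not pass over all genes with edgeR (adjusted p = 0.129), while DESeq2 called it (adjusted p = 0.0324).

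Nrg2 (chromosome 18, 36017652 to 36197380), a related ligand of ErbB3 and ErbB4, was called in neither genotype. It had 5.86, 5.14 and 3.18 CPM in dKO 5DPI nerve, against 2.79, 3.72 and 2.85 CPM in dKO Intact nerve. It had 0.908, 2.58 and 2.88 CPM in Control 5DPI nerve and 2.85, 2.60 and 2.99 CPM in Control Intact nerve. The injured and intact ranges overlapped in both genotypes. The change was 0.60 in dKO nerve (95% interval -0.20 to 1.41, adjusted p = 0.209) and -0.41 in control nerve (95% interval -1.24 to 0.41, adjusted p = 0.403).

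**Figure D3:**
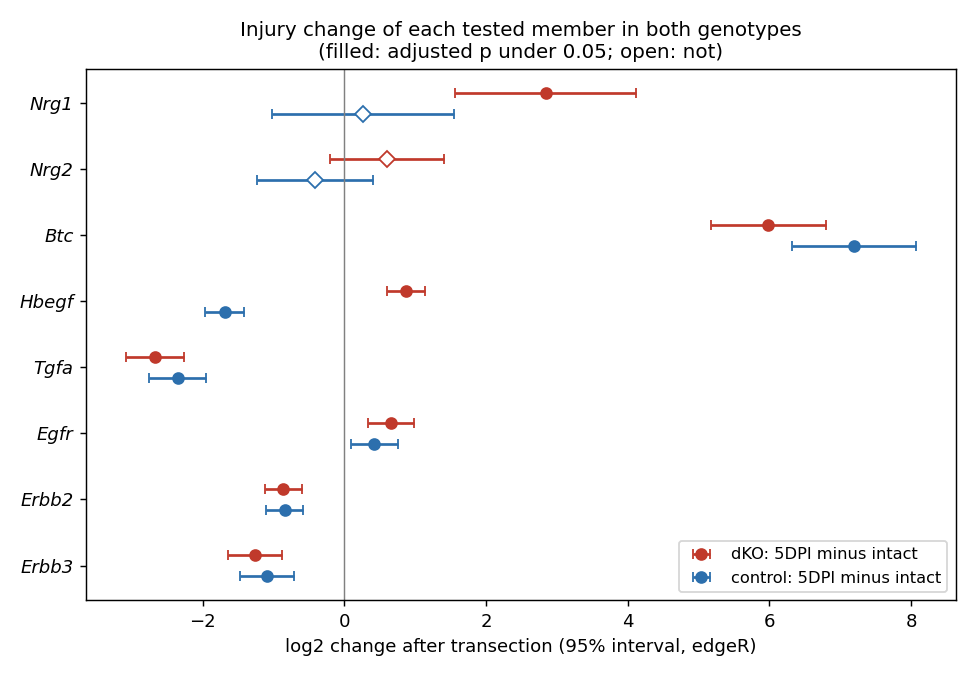
The log2 change after transection of each tested member in dKO nerve (red, above) and control nerve (blue, below), with 95% intervals from edgeR and open symbols where the adjusted p was not under 0.05. Hbegf is the member whose intervals lie on opposite sides of 0, at 0.87 in dKO nerve and -1.69 in control nerve.

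Markers of several cell types moved with injury in both genotypes. In dKO nerve 12 of 15 macrophage, 8 of 8 dividing cell and 10 of 10 repair Schwann cell markers were called higher, and 11 of 12 myelin markers lower. There 1 macrophage marker was called lower and 1 myelin marker higher. Over all models 22% were called higher and 22.6% lower. In control nerve the counts were 12 of 15, 8 of 8 and 10 of 10 higher, and 12 of 12 lower, where 24.4% of all models were higher and 22.4% lower. Macrophage markers summed to 1750 to 2265 CPM in dKO 5DPI nerve and 496 to 679 CPM in dKO Intact nerve, and to 1779 to 2759 CPM in Control 5DPI nerve and 483 to 680.0 CPM in Control Intact nerve. The part of these cells in the injury changes of the members was not tested.

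Calls in injured dKO nerve rest on libraries of the second set against intact libraries of the first. A term for the set was estimated from Control 5DPI replicate 4 against Control 5DPI replicates 1 and 2. It thus rests on 1 control library of the second set. On the other side is Control 5DPI replicate 1, which stood apart in Xist and Y-linked reads and in red cell markers. The term cannot separate the set from these traits, and a call lost with it does not show that a change is absent. With this term 3 members kept their call. These were Btc (6.34), Hbegf (1.28) and Tgfa (-2.001). Nrg1 (1.68, adjusted p = 0.301), Egfr (0.46, adjusted p = 0.298), Erbb2 (-0.42, adjusted p = 0.107) and Erbb3 (-0.84, adjusted p = 0.0648) did not.

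The next question was how genotypes differed within injured nerve. The ligand Hbegf was 5.198-fold higher in dKO than in control nerve, Nrg1 was 5.85-fold higher and Egfr 1.498-fold higher. These 3 of 10 members were called, all higher, where 12.1% of all tested models were called, 3.12% higher and 8.97% lower. The groups did not overlap for 6 of 8 tested members, 5 higher and 1 lower, where 30.5% of all models did not, 12.6% higher and 17.9% lower. The genotype and injury comparisons share the injured libraries, so their values for a member are not independent.

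For Hbegf the log2 difference at 5 days was 2.38 (SE 0.13, 95% interval 2.09 to 2.66, adjusted p = 1.22e-07). Within the second set the 3 dKO libraries stood at 153 to 189 CPM and the 1 control library at 27.0 CPM, which was the lowest control value. The term for the set gave 2.67 (adjusted p = 1.36e-05), and leaving out each library in turn gave 2.24 to 2.45. For Nrg1 the difference was 2.55 (SE 0.59, 95% interval 1.29 to 3.81, adjusted p = 0.0113). Within the second set dKO libraries stood at 4.10 to 7.70 CPM and the control library at 1.48 CPM, the highest control value. Without Control 5DPI replicate 1, which held only 5 reads of Nrg1, the difference was 2.03 (adjusted p = 0.011). The Nrg1 call ended without dKO 5DPI replicate 3 (2.20, adjusted p = 0.0637) and with the set as a term (1.87, adjusted p = 0.39). For Egfr the difference was 0.58 (SE 0.15, 95% interval 0.25 to 0.91, adjusted p = 0.0236). Within the second set dKO libraries stood at 72.4 to 79.9 CPM and the control library at 56.0 CPM. All dKO libraries lay above all control libraries, but the call ended without Control 5DPI replicate 1 or 2 or dKO 5DPI replicate 2 or 3 (0.52 to 0.57, adjusted p = 0.0708 to 0.0934). With the set as a term it was 0.46 (adjusted p = 0.455). The difference of both injury changes of Egfr was 0.24 (95% interval -0.23 to 0.70, adjusted p = 0.663). In intact nerve Egfr was 0.35 higher in dKO mice (95% interval 0.02 to 0.68, adjusted p = 0.85).

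Erbb2 lay just outside the threshold, 0.39 higher in dKO nerve (SE 0.12, adjusted p = 0.0505). It passed in 7 of 16 alternatives, among them DESeq2 (0.41, adjusted p = 0.031), the set as a term (0.70, adjusted p = 0.0211) and the fit without Control 5DPI replicate 1 (0.50, adjusted p = 0.0257). Nrg2 had a difference of 1.17 (95% interval 0.35 to 1.99, adjusted p = 0.0628). It passed in 4 of 16 alternatives, among them DESeq2 (adjusted p = 0.0153). Others were the fits without Control 5DPI replicate 4 (1.44, adjusted p = 0.0342) and without dKO 5DPI replicate 4 (1.37, adjusted p = 0.0491). Over all 16 the Nrg2 difference ran from 0.72 to 1.44. Btc had a difference of -0.50 (95% interval -1.10 to 0.09, adjusted p = 0.263). It passed in 1 of 16 alternatives, limma-voom (-0.49, adjusted p = 0.0473), and ran from -0.62 to -0.26 over them. Tgfa had -0.40 (95% interval -0.79 to -0.00, adjusted p = 0.184). It passed in 1 of 16 alternatives, without Control 5DPI replicate 4 (-0.59, adjusted p = 0.0228), and ran from -0.59 to 0.0860 over them. Erbb3 had -0.29 (95% interval -0.67 to 0.09, adjusted p = 0.308). Within the second set the control library lay below the dKO range for Erbb2 (69.7 to 82.6 CPM in dKO, 47.8 CPM in control) and Nrg2 (3.18 to 5.86 CPM in dKO, 2.88 CPM in control). It lay above it for Btc (39.0 to 52.6 CPM in dKO, 57.1 CPM in control) and inside it for Erbb3 and Tgfa.

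The balance of members within a library is given as differences of log2 CPM, which are to be compared between groups and not read as levels. Egfr minus Erbb3 was -0.31 ± 0.16 in dKO 5DPI nerve, -1.18 ± 0.36 in Control 5DPI nerve, -2.25 ± 0.47 in dKO Intact nerve and -2.69 ± 0.63 in Control Intact nerve (SD, n = 3 each). Btc minus Hbegf was -1.86 ± 0.38 in dKO 5DPI nerve, 1.04 ± 0.07 in Control 5DPI nerve, -6.91 ± 0.67 in dKO Intact nerve and -7.99 ± 1.40 in Control Intact nerve. Erbb2 minus Erbb3 was -0.30 ± 0.12 in dKO 5DPI nerve, -0.98 ± 0.01 in Control 5DPI nerve, -0.70 ± 0.10 in dKO Intact nerve and -1.20 ± 0.34 in Control Intact nerve, so it was higher in dKO nerve both injured and intact. These differences were not tested.

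Marker sums of several cell types differed between genotypes in injured nerve. The summed ranges of both genotypes did not overlap for 8 of 17 marker lists, and single markers were called in some of these at about the 12.1% of all models or less. Schwann cell markers summed to 3259 to 3503 CPM in dKO 5DPI nerve, against 4258 to 6073 CPM in Control 5DPI nerve, and 1 of 11 was called higher and 6 lower. Myelin markers summed to 4682 to 5767 CPM in dKO and 1661 to 2379 CPM in control nerve, and 10 of 12 were called higher. Markers of dividing cells summed to 253 to 318 CPM in dKO and 641 to 859 CPM in control nerve, and 8 of 8 were called lower. Fibroblast markers summed to 11419 to 12648 CPM in dKO and 6740 to 10032 CPM in control nerve, with 1 of 12 called higher. Endothelial markers summed to 805 to 1173 CPM in dKO and 583 to 694 CPM in control nerve, with 1 of 9 called higher. Repair Schwann cell markers summed to 1351 to 1593 CPM in dKO and 1926 to 2480 CPM in control nerve, with 6 of 10 called lower. Skeletal muscle markers summed to 13.6 to 51.2 CPM in dKO and 6.76 to 11.7 CPM in control nerve. By edgeR 0 of 8 were called and 4 had an unadjusted p under 0.05, where 27.1% of all models did. Of the 7 epithelial markers 3 passed the low-count filter, and 1 of these was called higher. All 7 summed to 32.7 to 42.2 CPM in dKO and 5.26 to 7.27 CPM in control nerve. Most of that sum was Cdh1, also known from Schwann cells, at 34.4 ± 5.31 CPM in dKO and 5.00 ± 0.918 CPM in control nerve. No marker of the Schwann cell list was at 0 in an injured library. Macrophage markers overlapped, at 1750 to 2265 CPM in dKO 5DPI nerve and 1779 to 2759 CPM in Control 5DPI nerve. The part of these cell types in the differences of Hbegf, Nrg1 and Egfr was not tested.

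In intact nerve the genotypes were compared as well, and 0 of 10 members passed with edgeR, where 0.00447% of all models did. At an unadjusted p under 0.05 there were 2 members, where 5.8% of all models were, and DESeq2 and limma-voom called 0. These were Erbb2, 0.41 higher in dKO nerve (95% interval 0.15 to 0.67, adjusted p = 0.841), and Egfr, 0.35 higher (95% interval 0.02 to 0.68, adjusted p = 0.85). The Erbb2 libraries did not overlap between genotypes, at 134 to 153 CPM in dKO Intact nerve and 104 to 107 CPM in Control Intact nerve, where 14.6% of all models did not, 7.37% higher and 7.18% lower. The interval of Hbegf was -0.45 to 0.09, that of Tgfa -0.46 to 0.31 and that of Erbb3 -0.49 to 0.25. Those of Nrg1 (-1.33 to 1.26), Nrg2 (-0.66 to 0.96) and Btc (-0.33 to 1.75) were wide.

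Among the 5 other genes of the family, Erbb4, the receptor bound by several neuregulins and EGF ligands, was higher in dKO 5DPI nerve at 18.2 ± 2.21 CPM than in Control 5DPI nerve at 10.3 ± 2.69 CPM (0.83, SE 0.19, adjusted p = 0.012). With the set as a term it was 0.45 (adjusted p = 0.483). It fell with injury in control nerve (-1.24, adjusted p = 0.000106), and in dKO nerve its change was -0.18 (adjusted p = 0.471). The difference of both changes was 1.06 (adjusted p = 0.0512). Nrg3, a ligand of ErbB4, rose in dKO nerve (1.11, adjusted p = 0.000314, and 0.53 with the set as a term, adjusted p = 0.239), and its change in control nerve was 0.32 (adjusted p = 0.185). Nrg4, another ligand of ErbB4, rose in control nerve (0.39, adjusted p = 0.0099) to 41.4 ± 1.54 CPM, against 31.7 ± 4.04 CPM in intact nerve. Its change in dKO nerve was 0.19 (adjusted p = 0.185), and the difference of both changes was -0.20 (adjusted p = 0.586). Egf was called in no comparison, with a mean of 3.60 to 4.22 CPM over groups, nor was Epgn.

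Genes that act next to the receptors were taken from 5 lists with 88 tested genes, the other family genes included. At 5 days 9 were higher and 9 lower in dKO nerve, which makes 18 of 88, where 12.1% of all models were called. The median difference was -0.02, as it was over all models. With the set as a term all 18 kept their sign but only Gab1 kept its call, so the other calls named here and in the next paragraph rest on the fit without that term. Among 16 genes of ligand shedding 3 were higher and 3 lower. Rhbdf2, which encodes iRhom2, a partner of the sheddase ADAM17, stood at 31.3 ± 2.31 CPM in dKO 5DPI nerve and 19.2 ± 3.68 CPM in Control 5DPI nerve (0.71, adjusted p = 0.00903). Cnih, whose product carries an EGF family ligand out of the endoplasmic reticulum in Drosophila, was lower in dKO nerve (-0.60, adjusted p = 0.00337) and Adam19, a sheddase of neuregulin 1, higher (0.67, adjusted p = 0.0252). Adam10, a sheddase of betacellulin, was lower in dKO nerve at 5 days (-0.60, adjusted p = 0.0373) and fell with injury in both genotypes, by 2.18 in dKO and by 1.98 in control nerve.

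Of 23 genes of receptor braking and turnover 1 was higher and 2 were lower in dKO 5DPI nerve. Over all models 12.1% were called at 5 days, 3.12% higher and 8.97% lower. The counts of this list and of the 29 adaptors and kinases below are near those shares. Lrig1, which lowers ErbB receptor levels, stood at 110 ± 14.9 CPM in dKO 5DPI nerve and 74.0 ± 9.22 CPM in Control 5DPI nerve (0.57, adjusted p = 0.0138). Rnf41, a ubiquitin ligase of ErbB3, was lower (-0.36, adjusted p = 0.029), as was Hgs of endosomal sorting (-0.33, adjusted p = 0.0276). Of 29 adaptors and kinases 1 was higher and 3 were lower. Gab1, a docking protein of EGFR, stood at 159 ± 12.8 CPM in dKO 5DPI nerve and 114 ± 13.4 CPM in Control 5DPI nerve (0.48, adjusted p = 0.00943), and the set term gave 0.68 (adjusted p = 0.02). Map2k1 (MEK1, -0.42, adjusted p = 0.00756), Mapk3 (ERK1, -0.44, adjusted p = 0.0141) and the adaptor Grb2 (-0.34, adjusted p = 0.0346) were lower. Of 15 receptor partners 3 were higher, the proteoglycan gene Sdc4, the tetraspanin gene Cd151 and the lysophosphatidic acid receptor gene Lpar1 (0.37 to 0.47), and 1 was lower (Cd44, -0.74, adjusted p = 0.0123). Standard errors of the 18 differences ran from 0.09 to 0.19.

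**Figure D4:**
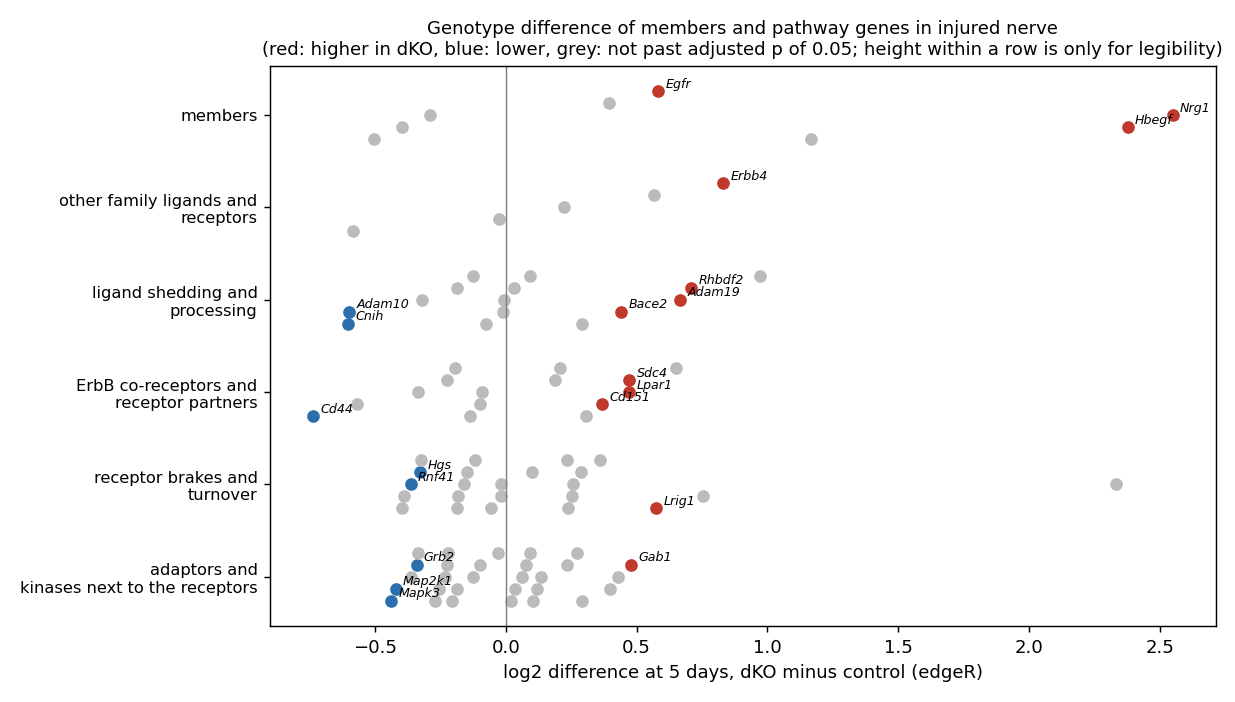
The log2 difference at 5 days (dKO minus control) of the members and of genes in 5 lists, with 1 gene not drawn, red where called higher, blue where called lower and grey otherwise. Nrg1 at 2.55 and Hbegf at 2.38 lie to the right of every other called gene.

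After injury 18 of the 88 genes rose and 34 fell in dKO nerve, where 22% of all models rose and 22.6% fell. In control nerve 24 rose and 35 fell, where 24.4% of all models rose and 22.4% fell. With the set as a term 30 were called in dKO nerve, of which 29 were among the 52. The median change was -0.11 in dKO nerve (0.05 over all models) and -0.15 in control nerve (0.09 over all models). Gpc1, a heparan sulfate proteoglycan, rose by 2.67 in dKO nerve (adjusted p = 8.65e-06) and by 3.66 in control nerve (adjusted p = 5.58e-07). Cd44, a proteoglycan known to present HB-EGF, rose by 2.40 in dKO nerve (adjusted p = 1.42e-07) and by 2.64 in control nerve (adjusted p = 3.75e-08). Errfi1, a feedback inhibitor of EGFR and ErbB2, changed by -1.48 in dKO nerve (adjusted p = 0.00136) and by -1.58 in control nerve (adjusted p = 0.000751). Of the 88 genes 1 was called for the difference of injury changes, Mpzl1 (0.78, adjusted p = 0.0289), which is the gene of a membrane protein related to myelin protein zero. The count was 0 with the set as a term and without Control Intact replicate 1, dKO Intact replicate 2, 3 or 4, Control 5DPI replicate 1 or dKO 5DPI replicate 2, and 8 without Control 5DPI replicate 4. In intact nerve 0 of 88 passed with edgeR, DESeq2 or limma-voom, and 11 had an unadjusted p under 0.05, where 5.8% of all models did. The count at 5 days also moved with the libraries. It was 8 without Control 5DPI replicate 1, 11 without Control 5DPI replicate 2, 10 without dKO 5DPI replicate 2 and 10 without dKO 5DPI replicate 3.

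Genes with the most similar pattern were sought by Pearson's r of log2 CPM over the 12 libraries among 12768 models. All points share the 4 groups, and r of the deviations from group means is given second. For Nrg1 these were Col5a1 (0.95 and 0.84), Adamts15 (0.92 and 0.92) and Cntnap2 (0.91 and 0.88). For Btc they were Ddx39 (0.996 and 0.959), Tagln2 (0.995 and 0.849) and Sema4f (0.994 and 0.901). For Egfr they were Zbed3 (0.96 and 0.81), Thbs4 (0.96 and 0.90) and Pck2 (0.95 and 0.68). For Erbb3 they were Tsc1 (0.99 and 0.93), Fmnl2 (0.99 and 0.95) and Metap1d (0.99 and 0.91). For Erbb2 they were Trim46 (0.98 and 0.79), Atp9a (0.97 and 0.72) and Lysmd4 (0.97 and 0.57). Control 5DPI replicate 1 held only 5 reads of Nrg1, and Control Intact replicate 2 only 2 of Btc. The weight of single libraries in these r values was not tested.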

How the data were processed

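PolyA RNA of nerve was sequenced by the authors from libraries of the Ion Total RNA-Seq Kit v2, per the labels' protocols. Reads were mapped to mm10 and DESeq2 was used in R 4.2.1, per the submitters' processing notes. The aligner, counter, strand setting and annotation were not given in the sources used here. As deposited, 1 table holds raw counts per gene model. The other deposited table holds a signal, which is those counts over 1 size factor per library (checked: within a library their quotient departed from 1 value by at most 0.304%).

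The raw counts entered edgeR 4.0.16 (R 4.3.3), with filterByExpr over the 4 groups (minimum count 10), TMM factors and 1 robust quasi-likelihood fit of 4 group means over 12 libraries. CPM use TMM-scaled library sizes. Adjustment was over 22384 models, at a threshold of 0.05. Intervals are 95% intervals from the SE. With 3 libraries against 3 an exact permutation test cannot go below 0.1, so none was used. Gene lists held 246 entries, of which 244 matched a model. Exon lengths and positions came from GENCODE M21 by symbol. The series' text calls the samples biological replicates but ties none to an animal, and replicates differed beyond counting noise.

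The genes named were the 10 members, the 5 other family genes, up to 4 genes with the smallest p of each other list in a comparison, and the 3 most similar genes of Nrg1, Erbb2, Erbb3, Egfr and Btc, with predicted models left out. Cdh1 was named after its values were seen. For 1 gene of these lists, values are not reported here, and it is counted in the totals. The members, lists and tests, the term for the second library set included, were chosen with earlier results of these data known. The set holds libraries with over 2 times the median number of olfactory receptor genes with a read at equal depth. Alternatives were DESeq2 1.42.0, limma-voom (limma 3.58.1), DESeq2 and upper-quartile scaling, no filter or a stricter one (3 libraries at 1 CPM or more, and 10 counts on average), the compared groups only, a replicate block, the set term, each library left out in turn, and a threshold of 0.01. DESeq2 and limma-voom counts for the pathway lists were added after seeing the data.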

Additional observations from a re-analysis of the deposited data

Results flagged for a closer look

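The injury change of Hbegf differed between genotypes by a test of the difference itself, 2.56 on the log2 scale (dKO minus control, SE 0.18, adjusted p = 4.25e-06 by edgeR). Hbegf was higher than intact nerve in 3 of 3 dKO 5DPI libraries and lower than intact nerve in 3 of 3 Control 5DPI libraries. Over 21 alternatives the difference ran from 2.42 to 2.85, with an adjusted p of at most 0.00232.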

How the results depend on the processing

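Of 17 called changes of members, 10 kept their direction and call under all alternatives, and 0 reversed. The 10 were those of Btc, Hbegf and Tgfa with injury in both genotypes, of Erbb2 and Erbb3 with injury in control nerve, and of Hbegf at 5 days and in the difference of injury changes. Members called at 5 days numbered 3, against 5 with DESeq2, 6 with limma-voom, 1 at a threshold of 0.01 and 1 to 5 with a library left out. For the difference of injury changes 1 was called, against 2 with DESeq2, and for injury in dKO nerve 7, against 3 with the set as a term. With a library left out these stayed at 1 and 7, and at 5 to 6 for injury in control nerve. Pathway genes called at 5 days numbered 18, against 1 with the set term and 8 to 26 with a library left out. For injury in dKO nerve they numbered 52, against 30 with the set term. For the difference they numbered 1, against 0 with the set term, 4 with DESeq2, 2 with limma-voom and 0 to 8 with a library left out. The causes of these shifts were not tested.

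Signs turned only for uncalled changes. For the difference of injury changes Erbb2 was 0.0200 with DESeq2 scaling, 0.11 with upper-quartile scaling, 0.009999 with the stricter filter, 0.0128 with DESeq2, 0.29 with the set term and -0.16 to 0.0898 with a library left out. Erbb3 was 0.13 with the set term and -0.37 to 0.0408 with a library left out, and Tgfa was 0.16 with the set term. At 5 days the set term gave 0.00663 for Erbb3 and 0.0860 for Tgfa, and for injury in dKO nerve -0.12 for Nrg2. The change of Nrg1 with injury in control nerve was -0.27 with limma-voom, -0.22 with the set term, -0.66 with the replicate block and -0.22 to 0.77 with a library left out. In intact nerve the genotype difference with a library left out ran from -0.29 to 0.12 for Erbb3, -0.32 to 0.24 for Nrg1 and -0.17 to 0.0733 for Tgfa, and Nrg2 was -0.0792 with the replicate block.

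With the replicate block Egfr lost its calls at 5 days (0.66, adjusted p = 0.0553) and for injury in control nerve (0.36, adjusted p = 0.123). For injury changes and their difference the block joined same-numbered libraries within a genotype. For genotype comparisons it joined equal numbers across genotypes, hence different mice, so its values there reflect no pairing of animals. Deviations of same-numbered dKO and control libraries correlated at -0.20 and 0.18 in intact nerve and -0.07 and -0.06 in injured nerve. All models called numbered 1386 with the block against 2707 at 5 days, and 290 against 650 for the difference. The labels do not tie the numbers to animals, and deviations of same-numbered intact and injured libraries correlated at -0.18 and 0.01 in control and 0.29, 0.32 and 0.01 in dKO nerve. Control Intact replicate 1 had 3 Xist and 3068 Y-linked reads, and Control 5DPI replicate 1 had 10712 and 244. That number thus does not stand for the same animal in both libraries, although the block within control joined them. All models called at 5 days were 515 with the set term, 1243 at a threshold of 0.01 and 1577 to 4225 with a library left out (4225 without Control 5DPI replicate 4, and 1577, 1692 and 1714 without dKO 5DPI replicate 3, dKO 5DPI replicate 2 and Control 5DPI replicate 1). For the difference they were 172, 258 and 352 (without dKO 5DPI replicate 3) to 1276 (without Control 5DPI replicate 4), with 379, 419 and 426 without dKO Intact replicate 2, Control Intact replicate 3 and dKO Intact replicate 4, and 1066 with DESeq2. For injury in dKO nerve the set term gave 4299 against 9997. In intact nerve 1 model was called and 0 to 7 over alternatives. Upper-quartile scaling moved the median of all models in injured against intact dKO nerve to 0.19, against 0.05, and gave 6246 higher and 4044 lower against 4930 and 5067. At 5 days it gave 1075 higher and 1345 lower, against 699 and 2008. Low depth limits Nrg1, Areg and Ereg.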
